A study of Mus musculus with 20 samples.

Results

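The 9 genes described here build the lipid layer of the outer epidermis and were followed in keratinocytes of mice: Elovl4, Cyp4f39, Cers3, Ugcg, Abca12, Pnpla1, Alox12b, Aloxe3 and Sdr9c7. They were chosen by name, as rows of the deposited count table, and make up 9 of its 25719 rows. All 9 passed the filter on low counts and are among the 12424 genes tested.

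The skin barrier to water rests on ceramides with very long acyl chains. Elovl4 lengthens the fatty acid, Cyp4f39 places a hydroxyl group at its far end, and Cers3 joins it to a sphingoid base. Pnpla1 esterifies the far hydroxyl with linoleate, Ugcg adds glucose, and Abca12 moves the glucosylated lipid into lamellar bodies, the secretory granules of upper keratinocytes. The lipoxygenases Alox12b and Aloxe3 then oxidise that linoleate and the dehydrogenase Sdr9c7 oxidises it further, which prepares the lipid for attachment to proteins of the cornified envelope. Inherited loss of any of several of these enzymes causes ichthyosis, a scaling skin disease.

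Bulk RNA sequencing was done on keratinocytes of ear and back skin, enriched by flow sorting, with 20 mice in 4 groups of 5. All mice were homozygous for a floxed Cyp11b1 allele (Cyp11b1 L2/L2), the gene of the enzyme that completes corticosterone synthesis, and all received tamoxifen on 5 days, with cells taken on day 6. The conditional knockout mice (cKO) also carried K14-CreERTam, a Cre recombinase that tamoxifen activates and the Krt14 promoter drives in basal keratinocytes, whereas the controls were littermates without Cre. Tamoxifen was either spread on the skin (topical; 20 µl to ear skin and 100 µl to back skin) or injected into the peritoneum (systemic; 100 µl of 10 mg/ml). The route comparison therefore also takes in the solvent and the shaving of the back, which went with the topical route only and cannot be told apart from it. The labels give no age and no marker for the sort.

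Library totals ran from 11.6 to 50.1 M counts, and mitochondrial genes took 1.87% to 7.49% of them. Cyp11b1 had 0 to 6 counts in a library, too few to show its loss. The summed level of 8 predicted genes with satellite-like sequence was 79.0 CPM (counts scaled to library size) or more in all 5 systemic controls and in systemic cKO 2, and 42.2 CPM or less in the other 14 libraries, so that it nearly follows genotype within the systemic route. Keratinocyte identity was plain from Krt14, the keratin of the basal layer, at a group mean of 35442 to 54805 CPM, and Krt10, the keratin of the suprabasal layers, at 11208 to 15097 CPM. Summed markers of other cell types were low: at most 33.7 CPM for immune cells, 32.0 for fibroblasts, 34.998 for melanocytes and 6.601 for endothelium. Hair follicle markers summed to 1620 to 4926 CPM and sebaceous gland markers to 177 to 3632 CPM.

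The gene starts are shown for the 4 genes that differed between the routes in cKO mice, because these are the members the results turn on. The 250 bases before each RefSeq start (GRCm38.p6) are written 5′ to 3′ on the strand of the gene, and capitals mark any match to the 8 motifs searched. The windows are chr9:83806306-83806555 (minus strand) for Elovl4, chr17:32452473-32452722 (plus) for Cyp4f39, chr1:71414911-71415160 (minus) for Abca12 and chr10:127898285-127898534 (plus) for Sdr9c7.
Elovl4: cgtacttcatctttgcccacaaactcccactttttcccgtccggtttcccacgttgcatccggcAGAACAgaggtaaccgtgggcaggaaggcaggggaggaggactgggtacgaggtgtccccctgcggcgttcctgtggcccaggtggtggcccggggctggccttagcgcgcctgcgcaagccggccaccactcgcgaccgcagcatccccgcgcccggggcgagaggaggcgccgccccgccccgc
Cyp4f39: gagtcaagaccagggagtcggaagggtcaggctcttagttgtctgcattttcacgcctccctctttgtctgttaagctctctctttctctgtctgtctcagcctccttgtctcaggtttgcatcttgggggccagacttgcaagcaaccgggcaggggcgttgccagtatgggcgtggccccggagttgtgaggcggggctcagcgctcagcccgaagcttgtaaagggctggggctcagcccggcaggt
Abca12: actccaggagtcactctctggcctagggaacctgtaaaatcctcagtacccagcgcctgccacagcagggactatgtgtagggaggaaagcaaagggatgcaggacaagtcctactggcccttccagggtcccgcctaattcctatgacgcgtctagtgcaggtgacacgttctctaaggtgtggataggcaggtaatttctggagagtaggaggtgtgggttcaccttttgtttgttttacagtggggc
Sdr9c7: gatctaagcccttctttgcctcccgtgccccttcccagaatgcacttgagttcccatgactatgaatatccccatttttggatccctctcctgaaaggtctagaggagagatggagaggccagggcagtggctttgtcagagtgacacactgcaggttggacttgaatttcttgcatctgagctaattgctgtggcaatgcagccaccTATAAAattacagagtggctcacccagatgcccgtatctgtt

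The 4 windows have a GC content of 69.6% (Elovl4), 59.6% (Cyp4f39), 53.2% (Abca12) and 49.6% (Sdr9c7). RefSeq windows were found for 8 of the 9 genes and searched on both strands. The TATA box TATAAA, present in 12.4% of 32851 windows of this length, was found in Sdr9c7 alone, 42 to 37 bases before the start. AGAACA, the single arm of the glucocorticoid receptor element, was found in Elovl4 alone, 186 to 181 bases before the start, and in 16.1% of all windows. The whole receptor element, a palindrome of that arm, was in none of the 8 and in 0.00913% of all windows. CCACCC (KLF/SP type, 28.1% of all windows) and CCAAT (NF-Y type, 33.8%) were each found in Pnpla1 alone. TGANTCA (AP-1, 6.75%), AACCNGTT (GRHL type, 1.79%) and the PPAR/RXR direct repeat (0.0335%) had no match in the 8. No motif was shared by any pair of these genes.

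Per kilobase of exon, the level over all 20 mice differed widely between the genes. Elovl4 (ENSMUSG00000032262, chromosome 9, 83778692 to 83806277 in GRCm38) was by far the most abundant, at 146 ± 67.5 CPM per kb (SD, n = 20). Cyp4f39 (ENSMUSG00000061126, chromosome 17, 32452723 to 32493320) followed at 18.5 ± 6.38 CPM per kb, and Cers3 (ENSMUSG00000030510, chromosome 7, 66743504 to 66823691) at 14.5 ± 3.90. These genes act first on the fatty acid and the ceramide. The later steps lay lower. Alox12b (ENSMUSG00000032807, chromosome 11, 69156989 to 69169792) stood at 4.20 ± 1.76 CPM per kb, Pnpla1 (ENSMUSG00000043286, chromosome 17, 28858411 to 28890309) at 2.26 ± 0.651 and Abca12 (ENSMUSG00000050296, chromosome 1, 71242276 to 71414910) at 1.95 ± 0.805. Aloxe3 (ENSMUSG00000020892, chromosome 11, 69125896 to 69149115) was at 1.85 ± 0.825 CPM per kb, Ugcg (ENSMUSG00000028381, chromosome 4, 59189257 to 59222833) at 1.43 ± 0.643 and Sdr9c7 (ENSMUSG00000040127, chromosome 10, 127898518 to 127911761) at 0.964 ± 0.665. The upper part of this order held mouse by mouse: Elovl4 was above Cyp4f39, Cers3 above Alox12b, and Alox12b above Pnpla1 in 20 of 20 libraries. The neighbours Cyp4f39 and Cers3 (15 of 20), Pnpla1 and Abca12 (14 of 20) and Abca12 and Aloxe3 (12 of 20) were not separated beyond the spread between mice. Aloxe3 was above Ugcg in 17 of 20 and Ugcg above Sdr9c7 in 16 of 20. The order of the later genes rests in part on exon length. In CPM Alox12b averaged 10.2, below Pnpla1 at 10.9, Aloxe3 at 11.9 and Abca12 at 28.9. The lipoxygenase genes are neighbours on the same strand, with 7873 bases between them. An antisense transcript, Pnpla1os, overlaps 644 exon bases of Pnpla1, and whether the counting used strand is not given in the sources used here, so reads of the pair may be mixed in the Pnpla1 value.

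**Figure D1:**
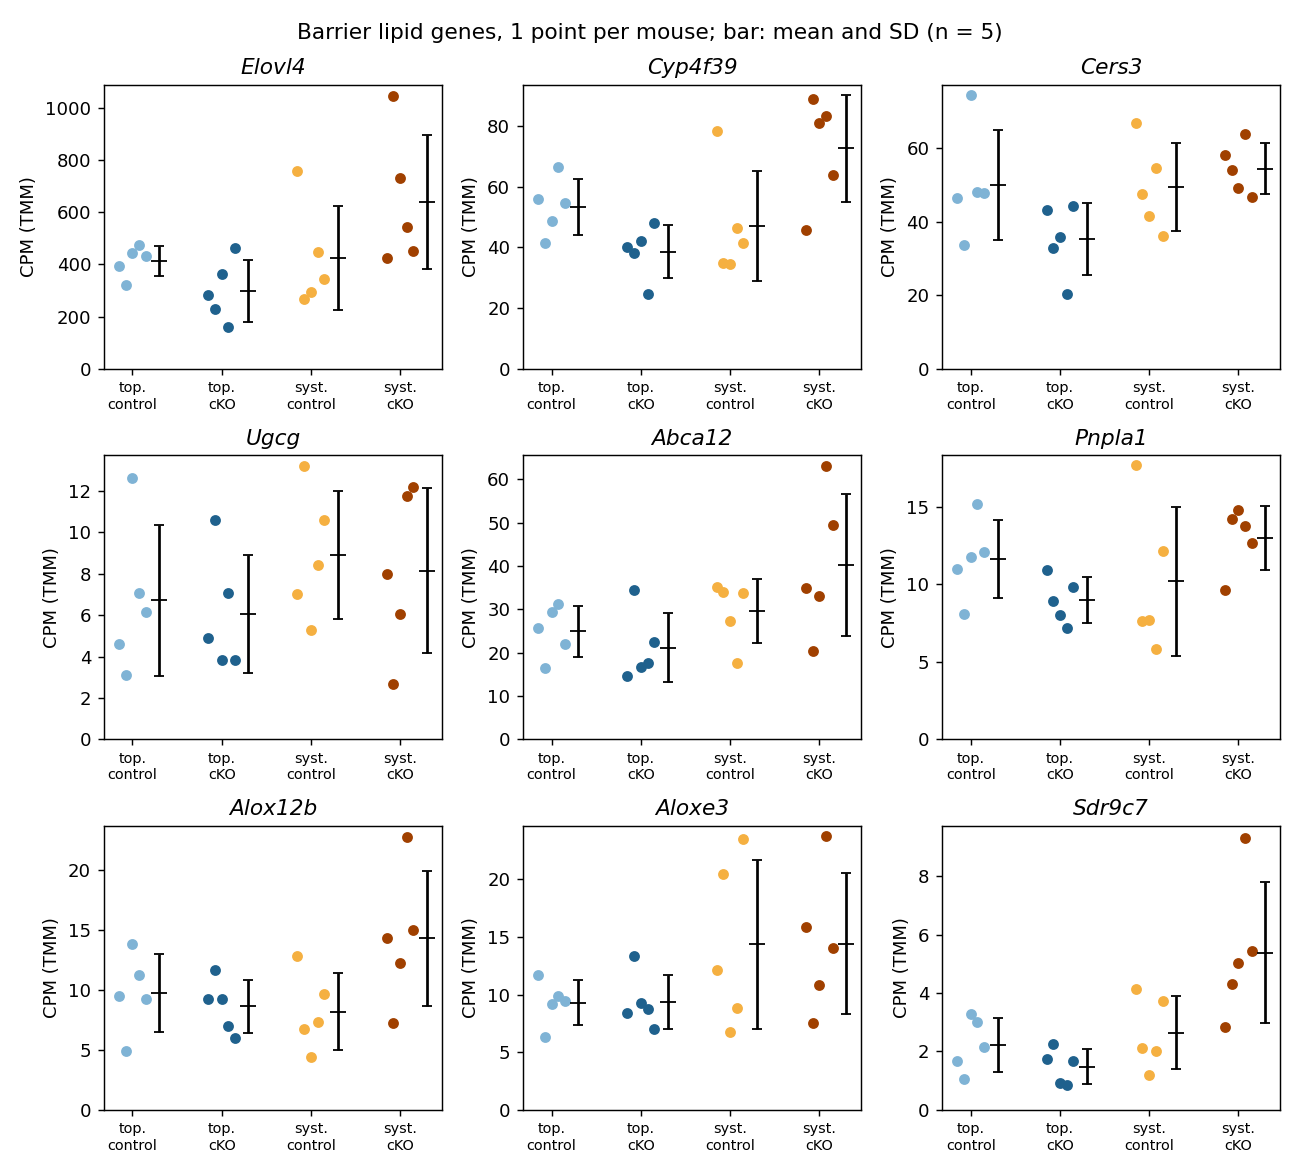
Level of each of the 9 genes in CPM in each of the 20 mice, by group; a point is 1 mouse, and the bars give the group mean and SD (n = 5). Sdr9c7 in systemic cKO, at 2.82 to 9.30 CPM, lies above all topical cKO mice, at 0.842 to 2.25 CPM, whereas the groups of Ugcg overlap throughout.

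Systemic cKO was first compared with topical cKO, since this contrast held the members' largest differences. All 9 genes had higher fitted levels in systemic cKO, and 4 of them rose: Sdr9c7, Elovl4, Abca12 and Cyp4f39 (edgeR's quasi-likelihood test, Benjamini-Hochberg adjusted p under 0.05 over all genes tested). Over all genes, 9.22% were called in this contrast, and 5.19% were called as higher. The members' median log2 fold change was 0.72, against -0.013 for all genes. These mice shared the Cre and the floxed alleles and differed in route. Here and below, more upper-layer cells and more RNA per cell cannot be told apart in bulk RNA.

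Sdr9c7, the dehydrogenase that acts last, showed the largest difference and the lowest counts, 12 to 176 per library. In topical cKO mice 2, 3, 4, 5 and 7 it stood at 1.72, 2.25, 0.923, 0.842 and 1.66 CPM. In systemic cKO mice 2, 4, 5, 6 and 7 it stood at 2.82, 4.302, 5.02, 9.30 and 5.44 CPM. Every systemic cKO mouse lay above every topical one, a separation that 7.39% of all genes showed. The fold was 3.67 (95% interval 2.13 to 6.31, log2 fold change 1.87, SE 0.38, adjusted p 0.00272). The call held whichever of these 10 libraries was left out.

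Elovl4, the elongase, stood at 281, 228, 362, 158 and 461 CPM in topical cKO mice 2, 3, 4, 5 and 7. In systemic cKO mice 2, 4, 5, 6 and 7 it stood at 423, 1043, 730, 542 and 452 CPM. Systemic cKO 4, the deepest library, was the highest of all 20, and topical cKO 7 overlapped the lowest systemic mice. The fold was 2.14 (95% interval 1.36 to 3.37, log2 fold change 1.10, SE 0.32, adjusted p 0.0306). It was no longer called without systemic cKO 4 (adjusted p 0.0828), systemic cKO 5 (0.0673), topical cKO 2 (0.0653), topical cKO 3 (0.0692) or topical cKO 5 (0.0894). The call was also lost with the replicate number as a block. Topical cKO 5, the lowest mouse, also had the highest mitochondrial share, 7.49%, and systemic cKO 4 had 2.45%; with that share as a covariate 5 members were called, and its part in single mice was not tested.

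Cyp4f39, the omega-hydroxylase, stood at 40.1, 38.2, 42.2, 24.5 and 48.0 CPM in topical cKO mice 2, 3, 4, 5 and 7. In systemic cKO mice 2, 4, 5, 6 and 7 it stood at 45.8, 88.9, 80.8, 83.3 and 63.9 CPM. Of the systemic mice only cKO 2 lay within the topical range. The fold was 1.88 (95% interval 1.36 to 2.61, log2 fold change 0.91, SE 0.23, adjusted p 0.0124) and the call held whichever of the 10 libraries was left out.

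Abca12, the lamellar body transporter, stood at 14.6, 34.4, 16.6, 17.5 and 22.5 CPM in topical cKO mice 2, 3, 4, 5 and 7. In systemic cKO mice 2, 4, 5, 6 and 7 it stood at 34.8, 20.3, 33.1, 63.0 and 49.5 CPM. Systemic cKO 4 and 5 lay inside the topical range, and topical cKO 3 and 7 inside the systemic range. The fold was 1.90 (95% interval 1.28 to 2.82, log2 fold change 0.93, SE 0.27, adjusted p 0.0357). The call was lost without systemic cKO 6 (adjusted p 0.122), systemic cKO 7 (0.0847), topical cKO 2 (0.103), topical cKO 4 (0.0838), topical cKO 5 (0.0966) or topical cKO 7 (0.0553), and also with no filter on low counts (0.0631).

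The other 5 members did not pass the test. Cers3, the ceramide synthase, was at 20.3 to 44.3 CPM in topical cKO and 46.8 to 63.9 CPM in systemic cKO, so that its groups did not overlap, with a log2 fold change of 0.62 (95% interval 0.18 to 1.07, adjusted p 0.0703). The DESeq2 Wald test called it (adjusted p 0.0495). Alox12b had a log2 fold change of 0.72 (95% interval 0.11 to 1.33, adjusted p 0.140) and Aloxe3 one of 0.61 (95% interval -0.031 to 1.25, adjusted p 0.242). Without systemic cKO 4, at 7.21 CPM the lowest mouse of its group, Alox12b was called (log2 fold change 0.90, adjusted p 0.0474). Pnpla1, the acyltransferase, had 0.54 (95% interval 0.058 to 1.02, adjusted p 0.161) and Ugcg, the glucosyltransferase, 0.40 (95% interval -0.42 to 1.21, adjusted p 0.591). With only the 10 libraries compared in the fit, Sdr9c7 and Cyp4f39 were called and Elovl4 (adjusted p 0.0644) and Abca12 (adjusted p 0.0878) were not.

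Markers of the upper layers moved with this contrast. The granular layer list, genes of the last living layer, had 6 of its 9 tested members called higher, among them Flg2, a filaggrin-family protein (log2 fold change 3.71, adjusted p 6.23e-05), and Lor, the cornified envelope protein loricrin (2.54, adjusted p 0.00302). The summed level of the list was 117 to 276 CPM in topical cKO and 235 to 880 CPM in systemic cKO, with no marker at 0 in a whole group. Of the 7 spinous markers 3 were called higher, and of the 6 basal markers 0 were called. Markers of other cells went in both directions in systemic cKO, with 0 called. Fitted levels were lower for all 9 tested sebaceous gland markers (median log2 fold change -1.15), all 4 tested fibroblast markers (-1.26) and all 4 endothelial markers (-1.07). Their sums were 177 to 2874 CPM in systemic cKO against 962 to 3632 CPM in topical cKO for the sebaceous gland, 2.77 to 6.56 against 3.17 to 32.0 CPM for fibroblasts and 0.879 to 2.93 against 0.840 to 6.601 CPM for endothelium. The 2 tested immune markers had higher fitted levels (median log2 fold change 0.86). The immune sums did not overlap, at 16.7 to 33.7 CPM in systemic cKO against 7.27 to 12.7 CPM in topical cKO. Of the melanocyte markers 2 of 3 tested were higher (median 0.22), and of the hair follicle markers 3 of 8 (median -0.058). The part of these other cells in the members' difference was not tested. With the log2 granular sum as a covariate, 0 of the 9 members were called and their median log2 fold change was 0.038. Under that fit Elovl4 had a log2 fold change of 1.12 (adjusted p 0.199), Sdr9c7 had 0.65, Cyp4f39 0.57 and Abca12 -0.24. The granular sum and the group overlap in large part, so the share of each in the members' difference cannot be told apart.

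**Figure D2:**
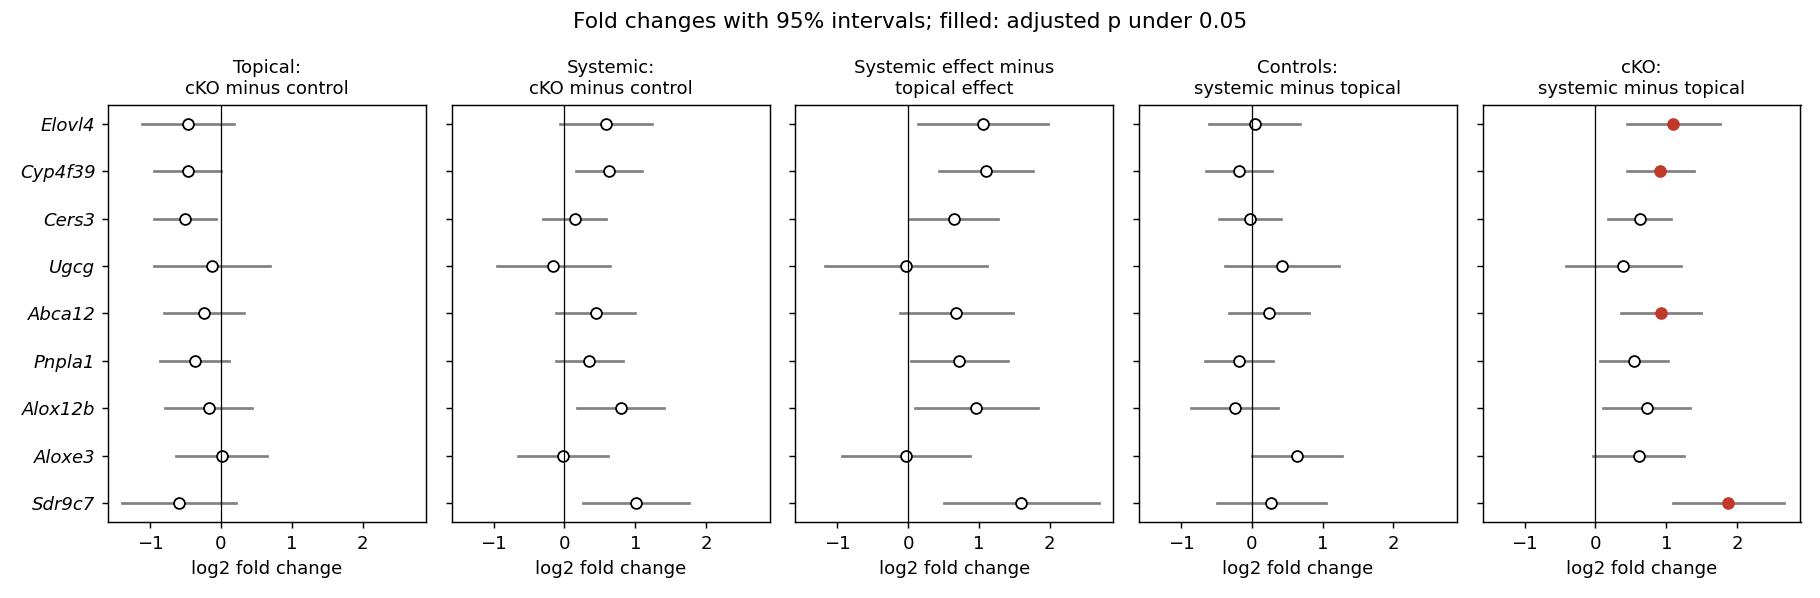
Log2 fold change of each of the 9 genes in the 5 contrasts, with 95% intervals from the fit over 20 mice; filled points passed an adjusted p of 0.05. The filled points are the 4 genes called in systemic against topical cKO.

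The topical genotype comparison asked how the genes stand when deletion is induced on the skin. Of the 9 genes 8 had lower fitted levels in topical cKO and 0 were called, while 0.129% of all genes were. The members' median log2 fold change was -0.37 against 0.020 for all genes, and 2 members had an unadjusted p under 0.05, as 5.66% of all genes did. Cers3 had the smallest p: it was at 46.5, 33.6, 74.5, 48.2 and 47.7 CPM in topical controls 1, 3, 5, 6 and 7, and at 43.3, 32.9, 35.9, 20.3 and 44.3 CPM in topical cKO. The groups overlapped, with topical control 5 highest and topical cKO 5 lowest. Its log2 fold change was -0.50 (95% interval -0.95 to -0.062, adjusted p 0.799 in edgeR). Elovl4, at 320 to 472 CPM in the controls, had a log2 fold change of -0.47 (95% interval -1.12 to 0.18), and Cyp4f39, at 41.5 to 66.3 CPM in the controls, also -0.47. Sdr9c7 had -0.59 (95% interval -1.39 to 0.21), Pnpla1 -0.37, Abca12 -0.24, Alox12b -0.17 and Ugcg -0.13. Aloxe3 stood at 0.010 (95% interval -0.63 to 0.65). The adjusted p of the 9 genes ran from 0.799 to 0.998, and the intervals leave room for changes of either sign in all but Cers3 and Cyp4f39. Beside these values, the spinous sum was 14106 to 24782 CPM in topical cKO and 25913 to 37908 CPM in topical control, with no overlap. Of the 7 spinous markers 6 had lower fitted levels and all 6 basal markers had higher ones, with 0 called in either list. The 4 tested fibroblast markers also had higher fitted levels in cKO (median log2 fold change 1.35, 0 called), with sums of 3.17 to 32.0 CPM against 1.45 to 9.88 CPM. The part of these markers in the members' values was not tested, except that with the granular sum as a covariate the members' median was -0.28.

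The systemic genotype comparison asked the same after injection. Here 7 of the 9 genes had higher fitted levels in cKO and 0 were called, against 1.89% of all genes. The members' median log2 fold change was 0.44 against -0.0045 for all genes, and 3 had an unadjusted p under 0.05, as 15.3% of all genes did: Sdr9c7, Cyp4f39 and Alox12b. Sdr9c7 stood at 4.15, 2.10, 1.19, 2.00 and 3.72 CPM in systemic controls 1, 3, 4, 5 and 6. Systemic cKO 2, at 2.82 CPM, lay inside that range and the other 4 cKO mice above it. Its log2 fold change was 1.01 (95% interval 0.27 to 1.75, adjusted p 0.158 in edgeR).

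Cyp4f39 stood at 78.1, 34.7, 34.6, 46.2 and 41.4 CPM in systemic controls 1, 3, 4, 5 and 6. Control 1 lay among the cKO mice, control 5 just above their lowest, 45.8 CPM in systemic cKO 2, and the other 3 below it. The log2 fold change was 0.63 (95% interval 0.16 to 1.10, adjusted p 0.165 in edgeR), and leaving out systemic control 1 gave 0.89 (adjusted p 0.0239) and leaving out systemic cKO 2 gave 0.75 (adjusted p 0.0461). Alox12b stood at 12.8, 6.73, 4.41, 7.29 and 9.67 CPM in systemic controls 1, 3, 4, 5 and 6. In systemic cKO mice 2, 4, 5, 6 and 7 it stood at 14.4, 7.21, 12.2, 22.8 and 15.01 CPM. Systemic cKO 4 and 5 lay inside the control range and the other 3 above it, and the log2 fold change was 0.79 (95% interval 0.18 to 1.41, adjusted p 0.183).

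Elovl4 was at 759, 269, 295, 449 and 345 CPM in systemic controls 1, 3, 4, 5 and 6, with control 1 again highest, and had a log2 fold change of 0.59 (95% interval -0.057 to 1.24, adjusted p 0.378). Abca12 had 0.44, Pnpla1 0.35 and Cers3 0.14. The oxidising partner of Alox12b, Aloxe3, stood at -0.019 (95% interval -0.65 to 0.61), and Ugcg at -0.16 (95% interval -0.96 to 0.65). Satellite-like transcripts moved with genotype here, as given above: with their log2 sum as a covariate 0 genes were called among all genes, and the members' median log2 fold change was 0.13. Sdr9c7 then had 0.39, Cyp4f39 0.13 and Alox12b 0.66. The granular sum moved as well, at 169 to 343 CPM in systemic control against 235 to 880 CPM in systemic cKO. The list did not move as a whole: 6 of its 9 tested markers had higher fitted levels, 3 were called higher, and the lowest log2 fold change was -0.68. Lor (log2 fold change 2.62, adjusted p 0.0107) and Flg2 (1.78, adjusted p 0.0318) were called, Flg2 in only 3 of 10 leave-one-out fits, and neither was with only the 10 libraries compared in the fit (adjusted p 0.0893 for Lor and 0.125 for Flg2). With the granular sum as a covariate the members' median was 0.031. The parts of satellite-like and granular transcripts in the members' values cannot be told apart from genotype in these mice.

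The interaction, the systemic genotype effect minus the topical one, tests whether the genotype effects differ between the routes. It called 0 of the 9 genes, against 0.250% of all genes, and 6 members had an unadjusted p under 0.05, as 14% of all genes did. The members' median log2 difference was 0.72 against -0.028 for all genes. Sdr9c7 had 1.60 (95% interval 0.51 to 2.69, adjusted p 0.160), Cyp4f39 1.10 (95% interval 0.43 to 1.76, adjusted p 0.119) and Elovl4 1.06 (95% interval 0.14 to 1.98, adjusted p 0.278). Alox12b had 0.96, Pnpla1 0.72, Abca12 0.68 and Cers3 0.65, whereas Aloxe3 and Ugcg both stood at -0.03. Cyp4f39 was called without systemic control 1 (1.36, adjusted p 0.0274), without systemic cKO 2 (1.22, adjusted p 0.0278) and by the DESeq2 Wald test (adjusted p 0.0466). With the granular sum as a covariate the members' median was 0.33, and Abca12 (-0.32) and Alox12b (-0.030) changed sign. With satellite-like transcripts as a covariate Sdr9c7 had 0.89, Cyp4f39 0.51 and Elovl4 0.48, and 0 members had an unadjusted p under 0.05. So a difference between the routes in the genotype effect did not pass the test for any member in the fit over all 20 mice.

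Route in the controls, systemic control against topical control, called 18.3% of all genes and 0 of the 9. No member had an unadjusted p under 0.05, whereas 32.9% of all genes did. Fitted levels were higher for 5 genes and lower for 4, with a median log2 fold change of 0.039 against 0.0008 for all genes. Aloxe3 had the highest value, 0.64 (95% interval -0.0005 to 1.28, adjusted p 0.152), with 6.36 to 11.7 CPM in topical controls and 6.78 to 23.5 CPM in systemic controls. Systemic controls 3 and 6, at 20.5 and 23.5 CPM, carried that mean and the other 3 lay at or near the topical range. Ugcg stood at 0.43, Sdr9c7 at 0.28, Abca12 at 0.25, Elovl4 at 0.039, Cers3 at -0.022, Pnpla1 and Cyp4f39 both at -0.18 and Alox12b at -0.24. Satellite-like transcripts separated these groups: their sum was 79.0 CPM or more in the systemic controls and 13.7 CPM or less in the topical ones. With it as a covariate 8 of the 9 genes had higher fitted levels with injection and 0 were called, and the median was 0.34. Sdr9c7 then had 0.98, Elovl4 0.64 and Cyp4f39 0.42. The sum and the route do not overlap in the controls, and their parts cannot be told apart. This contrast shares its topical controls with the topical genotype comparison and its systemic controls with the systemic one, and the route contrast in cKO shares its groups with both, so the contrasts are not independent of each other.

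The members did not vary as 1 block across mice. Over the 20 libraries the 36 pairs of genes had a median Pearson r of log2(CPM + 1) of 0.57, from -0.21 to 0.93, with 33 pairs positive; after group means were removed the median was 0.47. The points share library, depth and normalization, and the values are descriptions. Elovl4 and Cyp4f39, the steps at the fatty acid, were closest (r 0.93, Spearman's rho 0.94, 0.89 with group means removed). Both ran with Pnpla1 (r 0.69 for Elovl4 and 0.81 for Cyp4f39) and with Cers3 (0.73 and 0.69). Aloxe3 ran with Abca12 (r 0.75) and Ugcg (0.73), and Abca12 with Alox12b (0.70). Correlations of Elovl4, Cyp4f39, Cers3 and Pnpla1 with Abca12, Alox12b, Aloxe3 and Ugcg went from -0.21 (Elovl4 and Ugcg) to 0.59 (Pnpla1 and Alox12b). They overlapped those among the first 4 genes, of which the lowest was 0.50 (Cers3 and Pnpla1), so that no clear line divided the genes. Alox12b also had 0.54 with Cyp4f39 and 0.49 with Cers3. Sdr9c7 stood at 0.78 with Cyp4f39, 0.79 with Abca12 and 0.77 with Alox12b. Systemic cKO 4 had the highest Elovl4 and Cyp4f39 of all 20 mice, and the lowest Abca12, Ugcg, Alox12b and Aloxe3 of its group.

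**Figure D3:**
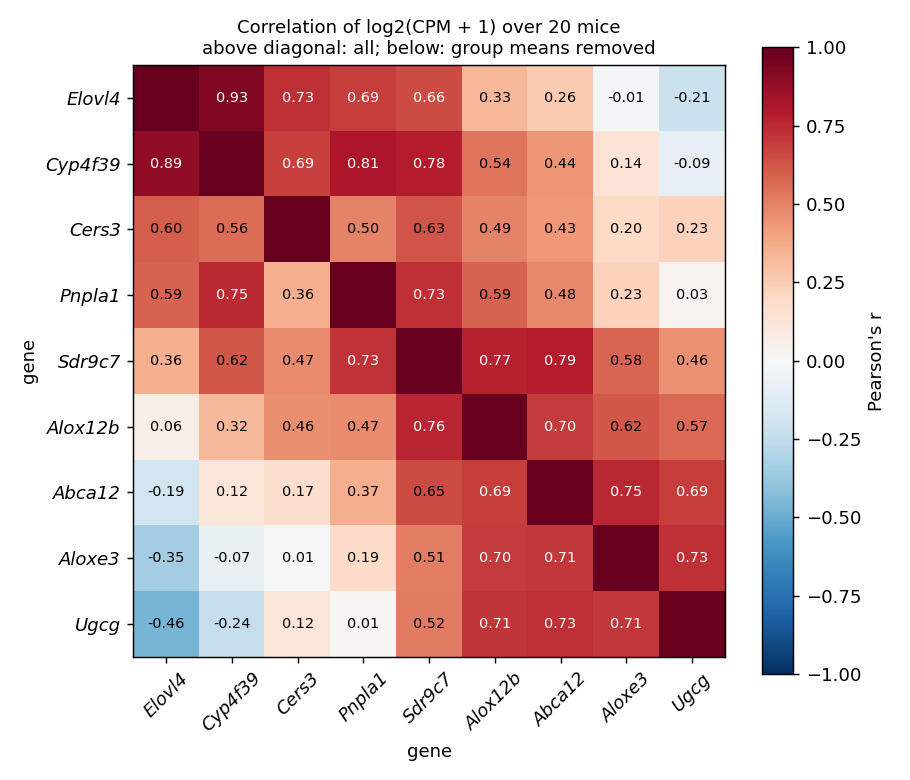
Pearson r of log2(CPM + 1) for each pair of the 9 genes over 20 mice, as it is above the diagonal and with group means removed below it. Above the diagonal r runs from -0.21 (Elovl4 and Ugcg) to 0.93 (Elovl4 and Cyp4f39), with intermediate values such as 0.59 for Pnpla1 and Alox12b.

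The mean of the 9 scaled levels followed the summed layer markers from mouse to mouse. Against the log2 granular sum Pearson r was 0.86 (Spearman's rho 0.87) over 20 mice, 0.80 without the 2 mice farthest from the median granular sum and 0.78 with group means removed. Against the spinous sum r was 0.75 (rho 0.74, 0.65 without the 2 farthest mice, 0.74 with group means removed). Against the basal sum it was -0.68 (rho -0.70, -0.72 without the 2 farthest mice, -0.66 with group means removed). Single markers varied more than the sums show. For basal markers r ran from -0.60 (Krt14) to 0.18 (Itga6), and for spinous ones from 0.19 (Calml3) to 0.85 (Dsc1). For granular ones it ran from 0.36 (Tgm3) to 0.81 (Cdsn). The markers and the members come from the same libraries and are shares of the same total, so the values describe these mice and carry no p.

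**Figure D4:**
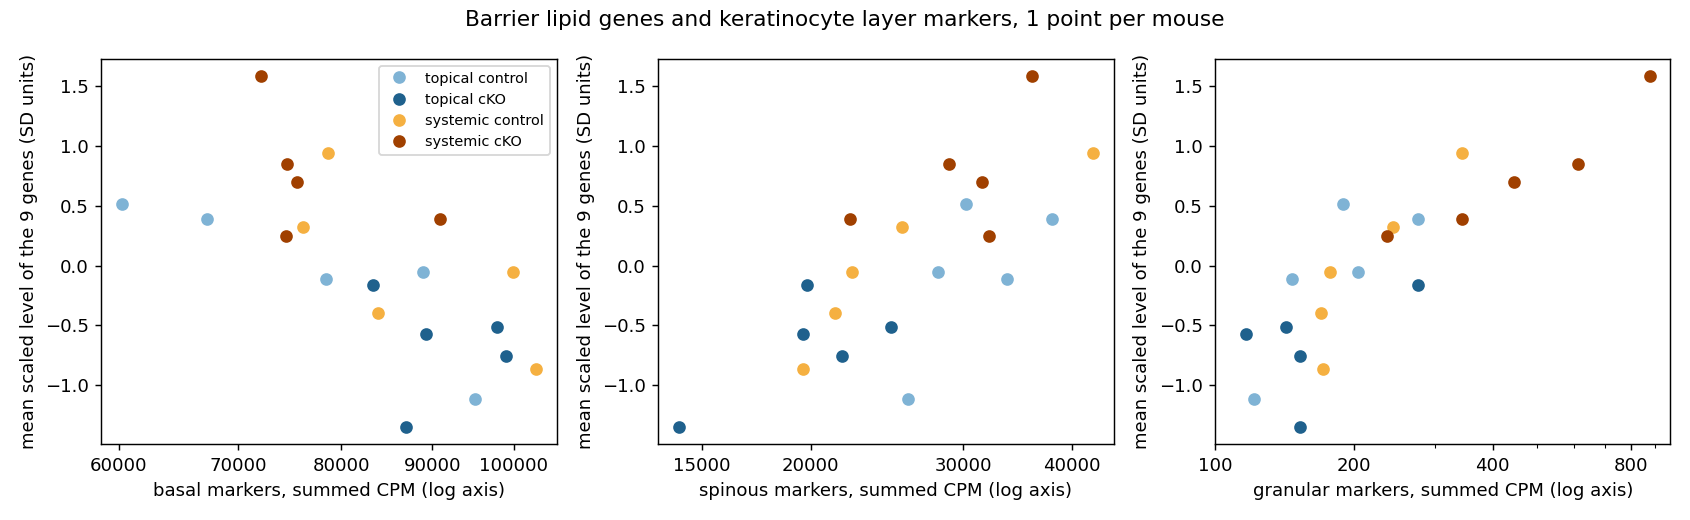
Mean scaled level of the 9 genes (SD units) against the summed CPM (log axis) of basal, spinous and granular markers; a point is 1 mouse, coloured by group. The mean falls along the basal sum (r -0.68) and climbs along the spinous (r 0.75) and granular sums (r 0.86).

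Among other genes, those closest to the mean of the 9 scaled levels over the 20 mice were Tfr2 (r 0.94), which encodes a transferrin receptor, Muc15 (0.92), a membrane mucin, and Il1f5 (0.92), the interleukin-36 receptor antagonist. Mpzl3 (0.91), Map2 (0.90), Rnase1 (0.89), Slc46a2 (0.88), Fads2b (0.87), Cnn3 (0.87) and Slc9a9 (0.87) followed. None of the 10 belongs to the pathway or layer lists. Of the layer markers Dsc1, a desmosomal cadherin of the upper layers, came nearest (r 0.85, rank 17 of the genes tested). Of the members themselves, each of which enters the mean, Sdr9c7 was closest to it (0.96) and Ugcg farthest (0.51).

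Other genes of the route from fatty acid to bound ceramide were taken from 8 lists, with 45 genes in the table and 41 tested. In the topical genotype comparison 0 of the 41 were called and their median log2 fold change was -0.11. In the systemic genotype comparison 2 were called, both higher in cKO, with a median of 0.30: Sptlc3, a subunit of serine palmitoyltransferase, which makes the sphingoid base (0.81, SE 0.20, adjusted p 0.0390), and Smpd1, acid sphingomyelinase (0.64, SE 0.15, adjusted p 0.0318). Sptlc3 was called in the fits without systemic cKO 2, systemic cKO 7 or systemic control 1 and Smpd1 without systemic cKO 2 or systemic control 1; the other leave-one-out fits lost the calls, with adjusted p up to 0.124 for Sptlc3 and 0.115 for Smpd1. With satellite-like transcripts as a covariate, neither was called (log2 fold changes 0.34 and 0.24), nor with only the 10 libraries compared (adjusted p 0.172 for Sptlc3 and 0.169 for Smpd1). All 13 genes of fatty acid elongation and activation had higher fitted levels in systemic cKO and 0 of them were called. Sptlc3 was also called in the interaction (1.36, SE 0.28, adjusted p 0.0420), a call that held in 4 of 20 leave-one-out fits, those without systemic cKO 2, systemic cKO 7, systemic control 1 or topical control 3. With the granular sum as a covariate it had 1.10 (adjusted p 0.182 in edgeR) and was not called. The call was also lost with satellite-like transcripts as a covariate.

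In systemic against topical cKO 8 of the 41 genes were called, all higher, and the median over the lists was 0.11. On the log2 scale Sptlc3 rose by 1.34 (SE 0.20, adjusted p 0.000226), Lipm, an epidermal lipase, by 1.33 (SE 0.21, adjusted p 0.000323) and Acsl1, a fatty acid CoA ligase, by 1.08 (SE 0.17, adjusted p 0.000391). The other 5 called, named after their values were seen, were Tgm1, the transglutaminase of the cornified envelope (1.44), Ephx3, an epoxide hydrolase (1.20), Acer1, an alkaline ceramidase (1.12), Elovl1 (0.98) and Cers6 (0.72). Acer1 kept its call in 5 and Cers6 in 6 of 10 leave-one-out fits, and the other 6 genes in all 10. With only the 10 libraries compared, Acer1 (adjusted p 0.0770) and Cers6 (0.0681) were not called. With the granular sum as a covariate Acsl1 remained called (1.05, adjusted p 0.0308) and the other 7 were not. The fitted values of some changed little, at 1.18 for Acer1, 0.86 for Elovl1 and 1.03 for Sptlc3 (adjusted p 0.0617), while Tgm1 went to 0.48 and Cers6 to 0.25.

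In the controls, route called 4 of the 41 genes higher and 6 lower with injection. Higher were Cers2 (log2 fold change 0.89, adjusted p 0.00412) and Cers6 (0.67, adjusted p 0.0239), ceramide synthases of other chain lengths, and Lipm (0.83, adjusted p 0.00823). Lower were Psap, the precursor of the saposins that help lysosomal lipid hydrolases (-1.44, adjusted p 0.00140), Hsd17b12, a reductase of the elongation cycle (-1.44, adjusted p 0.00278), and Abhd5, the cofactor of Pnpla1 (-0.56, adjusted p 0.00876). Cers6 was lost without topical control 3 or 7 or systemic control 3 or 6. With satellite-like transcripts as a covariate none of these 6 was called (adjusted p 0.141 to 0.578). Lipm (0.90) and Cers6 (0.58) then had log2 fold changes near those above, whereas Cers2 went to 0.30, Psap to -0.61, Hsd17b12 to -0.49 and Abhd5 to -0.25. The calls in this contrast were 0 of 9 for the members and 10 of 41 for their pathway neighbours, with 18.3% of all genes called. Any difference between the lists was not tested.

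**Figure D5:**
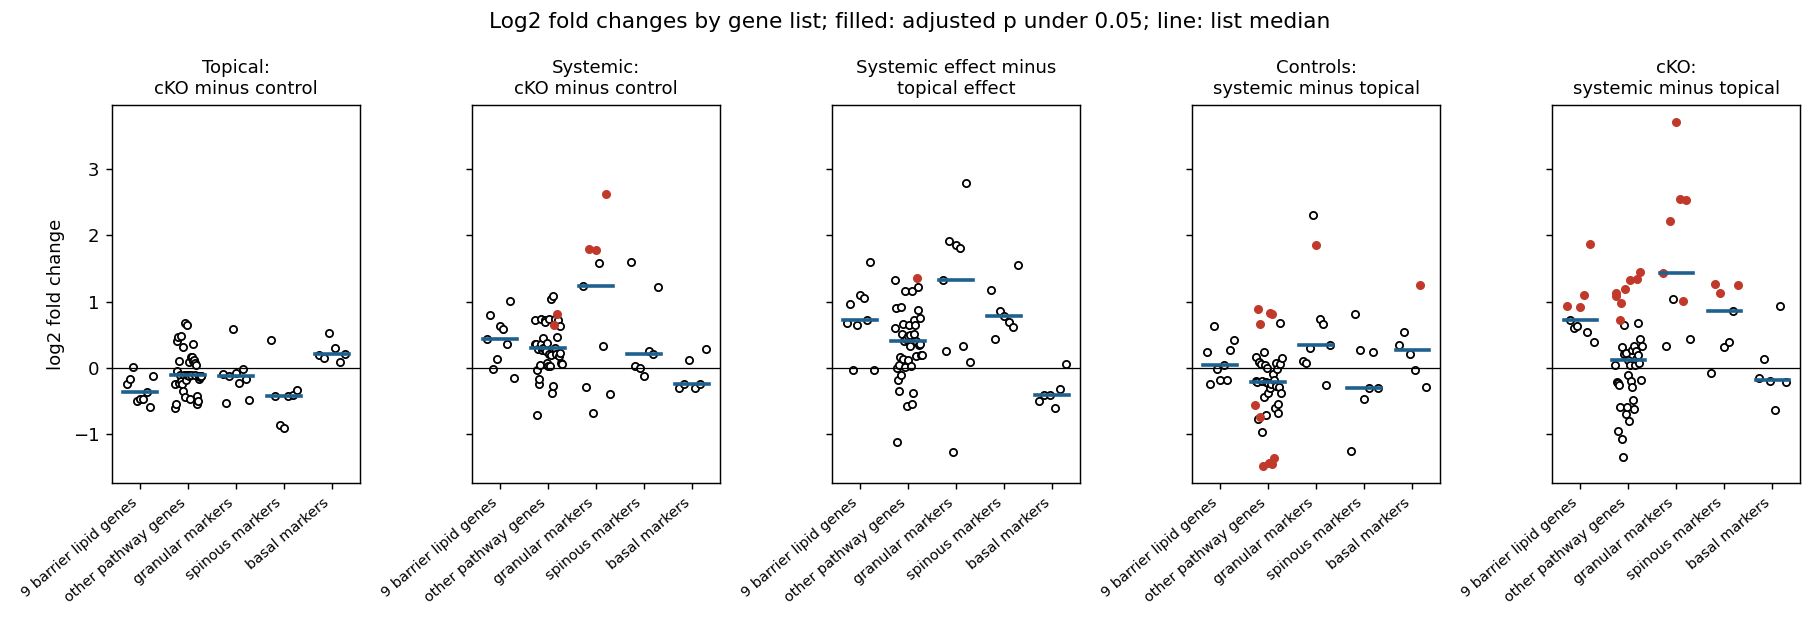
Log2 fold change of every tested gene among the 9 barrier lipid genes, the pathway neighbours together and the markers of 3 keratinocyte layers, by contrast; a point is 1 gene, filled points passed an adjusted p of 0.05 and a line is the median of its list. In systemic against topical cKO, 4 of the 9 barrier lipid genes, 8 of the 41 pathway genes and 6 of the 9 granular markers are filled, all above 0.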

How the data were processed

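Per the labels, SmartSeq II libraries came from total RNA of sorted keratinocytes. Values are raw counts per gene as deposited by the authors; the submitters' processing notes name STAR, featureCounts and GRCm38 (mm10), with no versions. GENCODE M21, of the same build, held 25614 of 25719 identifiers (24950 with the same symbol). No molecular identifiers are described.

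The 20 libraries were fitted together in R 4.3.3 with edgeR 4.0.16: filterByExpr (minimum count 10, minimum total 15), TMM factors, robust quasi-likelihood fit with 1 coefficient per group, two-sided tests, Benjamini-Hochberg adjustment over 12424 genes, calls at 0.05. Steps were tested on simulated data. Levels are CPM with TMM factors. Errors are SD over mice or SE of log2 fold changes, and each mouse is 1 replicate. Alternatives were DESeq2 1.42.0, limma 3.58.1 (voom with quality weights), DESeq2 size factors, no filter, only the libraries compared, a replicate block, covariates and leaving out each library.

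The 9 genes and all lists were chosen with earlier results of these data known. The naming rule took all 9 genes, called pathway genes of the genotype comparisons, the 3 with the smallest adjusted p per direction in route comparisons, the 10 most similar genes and Krt14, Krt10, Lor and Flg2. The satellite-like list of 8 genes and the sex covariate were added after seeing the data. Correlations and motif counts are descriptions.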

Additional observations from a re-analysis of the deposited data

Results flagged for a closer look

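Cyp4f39 in systemic control 1 stood at 78.1 CPM, while the other 4 systemic controls lay between 34.6 and 46.2 CPM. The gap to the nearest mouse, divided by the range of the group, was 0.734, above Dixon's limit for 5 samples. It was the only such value in 36 combinations of gene and group. Chance gives about 1 in 20 of such combinations, so 1 in 36 is no more than chance would give. The same mouse had the highest Elovl4 of its group, 759 CPM. Its satellite-like sum, 79.0 CPM, was the lowest of the systemic controls, and the part of that in the value was not tested.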

How the results depend on the processing

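Depth limits Sdr9c7 most, with 12 to 176 counts per library. The p-values set a difference of group means against the spread between mice within groups, with a dispersion estimate per gene that all groups share. Of 1026 alternative values of the 9 genes, 934 kept their direction and their side of the threshold, 18 lost a call, 10 gained one and 64 changed sign, none of the last with an adjusted p below 0.251.

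Genes called among all genes were 16 in the topical genotype comparison, 235 in the systemic one, 31 in the interaction, 2277 by route in controls and 1145 by route in cKO. The DESeq2 Wald test gave 42, 563 and 315 for the first 3, and limma voom gave 26 for topical genotype, 204 for the interaction and 3493 for route in controls. With the mitochondrial percent as a covariate, 1320 genes were called in the systemic genotype comparison, 364 in the interaction and 3496 by route in controls. The granular covariate gave 43 in the systemic comparison, 0 in the interaction and 203 by route in cKO, and satellite-like transcripts gave 0, 0 and 116 for systemic genotype, interaction and route in controls. Only the libraries compared gave 35 for systemic genotype, and sex as a covariate 49 for the interaction. Leaving out 1 library gave 10 to 19 (topical genotype; lowest without topical control 1 or 7), 81 to 787 (systemic genotype; highest without systemic cKO 2, and 81 to 146 without any other systemic mouse but control 1), 16 to 470 (interaction; highest without systemic cKO 2, 150 without systemic control 1 and 16 to 20 without systemic cKO 4, 5 or 6, systemic control 5, topical cKO 5 or topical control 7), 1463 to 2524 (route in controls; lowest without systemic control 3) and 746 to 1218 (route in cKO; lowest without topical cKO 5).

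Of the 9 genes, 4 were called by route in cKO, 2 with only the libraries compared, 0 with the granular covariate and 2 to 4 when 1 library was left out, 2 without topical cKO 2 or 5. In the systemic genotype comparison and in the interaction 0 were called; 1, Cyp4f39, was called with the mitochondrial covariate in both, by DESeq2 in the interaction, and 0 to 1 when 1 library was left out.

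Replicate numbers did not pair the mice: 20 same-number pairs of libraries had deviations correlated at -0.38 to 0.58 (median 0.031), against a median of -0.029 for 130 other pairs, and 3 of 20 libraries were closest to one with their number. With the number as a block, 9 genes were called for topical genotype and 0 for the interaction. By route in cKO 3 of the 9 barrier lipid genes were called, Cyp4f39, Abca12 and Sdr9c7, and Elovl4 was not. Under the block Ugcg (0.049), Abca12 (0.012) and Alox12b (0.17) changed sign in the topical comparison, Aloxe3 (0.16) in the systemic one and Elovl4 (-0.068) by route in controls.

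Other log2 fold changes that changed sign follow, none called. Topical genotype: Ugcg 0.041 and Aloxe3 -0.023 with limma, Aloxe3 -0.15 with the mitochondrial and -0.035 with the satellite-like covariate. Systemic genotype: Aloxe3 0.0038 with DESeq2, 0.20 with limma, 0.0099 without the filter, 0.22 with the satellite-like and 0.12 with the sex covariate; Abca12 -0.47 and Alox12b -0.052 with the granular covariate; Ugcg 0.042 and Pnpla1 -0.045 with the satellite-like one. Interaction: Ugcg 0.017 with DESeq2, Aloxe3 0.23 with limma and 0.0041 with sex, Abca12 -0.32 and Alox12b -0.030 with the granular, Ugcg 0.20 and Aloxe3 0.25 with the satellite-like covariate. Route in controls: Elovl4 -0.12 and Cers3 0.051 with limma, Elovl4 -0.054 with the mitochondrial, and Cyp4f39 0.42, Cers3 0.14 and Pnpla1 0.31 with the satellite-like covariate. Route in cKO with the granular covariate: Ugcg -0.95, Abca12 -0.24, Alox12b -0.48 and Aloxe3 -0.30. When 1 library was left out, Aloxe3 ran from -0.15 to 0.11 (topical genotype), -0.28 to 0.24 (systemic genotype) and -0.28 to 0.23 (interaction), and Ugcg from -0.41 to 0.23, -0.35 to 0.083 and -0.38 to 0.26. By route in controls Elovl4 ran from -0.28 to 0.17 and Cers3 from -0.16 to 0.16. The cause of these changes was not tested.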

Other observations

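The ratio of Aloxe3 to Alox12b, a pair chosen after the values were seen, was 0.885 to 1.10 in the 5 systemic cKO mice. In systemic controls 1, 3, 4, 5 and 6 it was 0.945, 3.04, 1.54, 1.22 and 2.43, so that 4 of the 5 lay above all systemic cKO mice. It was 0.665 to 1.30 in topical controls and 0.915 to 1.24 in topical cKO. The mean log2 ratio was -0.0002 in systemic cKO and 0.74 in systemic control. An exact two-sided permutation test gave p 0.0476, or 0.159 after Benjamini-Hochberg adjustment over the 4 contrasts of groups, which does not pass. With the pair picked on these values, that p supports nothing. The highest ratio, in systemic control 3, went with a satellite-like sum of 11589 CPM, the highest of the controls; its part was not tested.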
